A study of Homo sapiens with 4 samples.

Results

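The 42 genes described here form the Hippo signalling pathway and a set of genes reported to be driven by its effectors YAP and TAZ. They were found by symbol in the deposited tables, and all 42 were among the 26255 symbols listed. By role, 7 encode the core kinases and their adaptors, 10 encode upstream scaffolds, kinases and junction proteins, 7 encode the coactivators with their DNA-binding partners and VGLL4, and 18 are reported targets. RNA came from MIA PaCa-2 and PSN-1, established human lines from pancreatic tumours that the labels call epithelial. Each line received either an oligonucleotide that mimics miR-4800-3p, a human microRNA, or a scrambled negative control, and each of the 4 combinations had 1 library, in the stated search for targets of the microRNA. No dose, time after transfection or untransfected library is described in the labels, so all 4 libraries share the transfection itself.

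In the Hippo pathway the kinases STK3 and STK4 (MST2 and MST1), held by SAV1, activate the kinases LATS1 and LATS2, which MOB1 proteins assist. LATS kinases phosphorylate YAP1 and WWTR1 (the gene of TAZ) and so keep them out of the nucleus. Unphosphorylated YAP and TAZ enter the nucleus, bind TEAD factors and raise the transcription of genes of growth, adhesion and matrix. The pathway acts mainly through phosphorylation and location, neither of which RNA levels measure. YAP is known as a driver of growth in pancreatic tumours.

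The mature miR-4800-3p (RefSeq, GRCh38.p14, chr4:2250091-2250109, minus strand) is shown because the mimic carries it, with its seed, bases 2 to 8, in capitals.
miR-4800-3p: cAUCCGUCcgucuguccac
Sites for this seed (GACGGAT, or ACGGATA) were searched in the longest 3' UTR of each gene in GENCODE 29 (GRCh38). A site was found in 1 of the 42 members (2.38%), the target FOXF2, against 237 of the 9789 searched genes that averaged 1 FPKM or more in each line (2.42%). The 42 members were searched whatever their level, so these shares are not on like terms. FOXF2, listed at 0 in MIA PaCa-2, would not be among the 9789. In the coding sequence 1 of 42 members, MAP4K4, had a site (2.38%), against 446 of 9802 genes above that level (4.55%).

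Levels are in FPKM, fragments scaled to transcript length and library size, so they can be compared between genes. Across the libraries 15699 to 17294 symbols were above 0, and 1 FPKM was estimated to stand for 12.6 to 15.9 fragments per kb. The keratin genes KRT8 (537 to 923 FPKM) and KRT18 (495 to 718 FPKM) were high in all 4 libraries, while the epithelial cadherin gene CDH1 was at 0.170 to 1.51 FPKM and EPCAM was near 0 in MIA PaCa-2 (0.104 and 0.139 FPKM). KRT7 was listed at 0 in MIA PaCa-2. In the PSN-1 mimic and scramble libraries EPCAM was at 28.4 and 24.1 FPKM and KRT7 at 287 and 406 FPKM. KRT19 was at 78.2 to 178 FPKM, CLDN4 at 0.869 to 6.21 FPKM and CLDN7 at or under 0.445 FPKM. Of 4 mesenchymal markers, VIM, the gene of the filament vimentin, was at 1144 to 4401 FPKM and ZEB1 at 19.8 to 30.5 FPKM. CDH2 was at or under 0.0514 FPKM. FN1 was at 0.0457 and 0.0696 FPKM in MIA PaCa-2 (mimic and scramble) and at 353 and 308 FPKM in PSN-1. The KRT8, KRT18 and KRT19 levels in both lines, and those of EPCAM and KRT7 in PSN-1, go with the epithelial label. Those of CDH1 and CLDN7 in both lines and of EPCAM and KRT7 in MIA PaCa-2 do not. Markers of other cell types moved with the line. In order of mimic and scramble, the 5 leukocyte markers summed to 1.27 and 1.12 FPKM in MIA PaCa-2 and to 5.58 and 8.43 FPKM in PSN-1, mostly CD14 (2.70 and 4.95 FPKM) and LYZ (2.38 and 3.01 FPKM), with CD3E at 0 in all 4 libraries. The 4 endothelial markers summed to 0 and 0.0273 FPKM against 7.99 and 7.16 FPKM, mostly KDR (6.50 and 5.43 FPKM) and PECAM1 (1.27 and 1.58 FPKM), with VWF at or under 0.0549 FPKM throughout. The 6 fibroblast markers summed to 67.0 and 84.7 FPKM against 80.4 and 99.0 FPKM, but the genes behind the sum differed. COL1A2 was at 59.9 and 76.8 FPKM in MIA PaCa-2 and at 0.0120 and 0 FPKM in PSN-1. The other 5 were higher in PSN-1, among them COL3A1 (7.03 and 7.72 against 36.1 and 45.6 FPKM), PDGFRB (0.0510 and 0.0713 against 19.6 and 20.9 FPKM), LUM (0 and 0 against 14.3 and 19.6 FPKM) and COL1A1 (0 and 0.0824 against 10.2 and 12.6 FPKM). Their part in the differences between the lines was not tested.

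All 7 core genes were present in both lines, and some reported targets were near 0 in MIA PaCa-2. Each of the 7 core genes lay between 8.59 and 71.2 FPKM in every library. Of the 18 targets, 6 stayed below 1 FPKM in MIA PaCa-2 with either oligonucleotide, and 3 of those (ANKRD1, IGFBP3 and FOXF2) were listed at 0 there. For PSN-1, FOXF2 in the mimic library was the only target under 1 FPKM. Low genes were more frequent in MIA PaCa-2 beyond the targets too. Among the 12423 genes averaging 1 FPKM or more over the 4 libraries, MIA PaCa-2 had 1167 averaging under 1 FPKM, while PSN-1 had 578. Of the 17 targets among those genes, MIA PaCa-2 had 5 averaging under 1 FPKM, while PSN-1 had 0. The median level of the targets was 5.72 and 7.47 FPKM in the MIA PaCa-2 mimic and scramble libraries and 29.5 and 29.8 FPKM in those of PSN-1. For the core genes the medians were 17.1, 17.8, 18.4 and 14.7 FPKM in the same order. In bulk RNA, fewer expressing cells and less RNA per cell cannot be told apart.

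**Figure D1:**
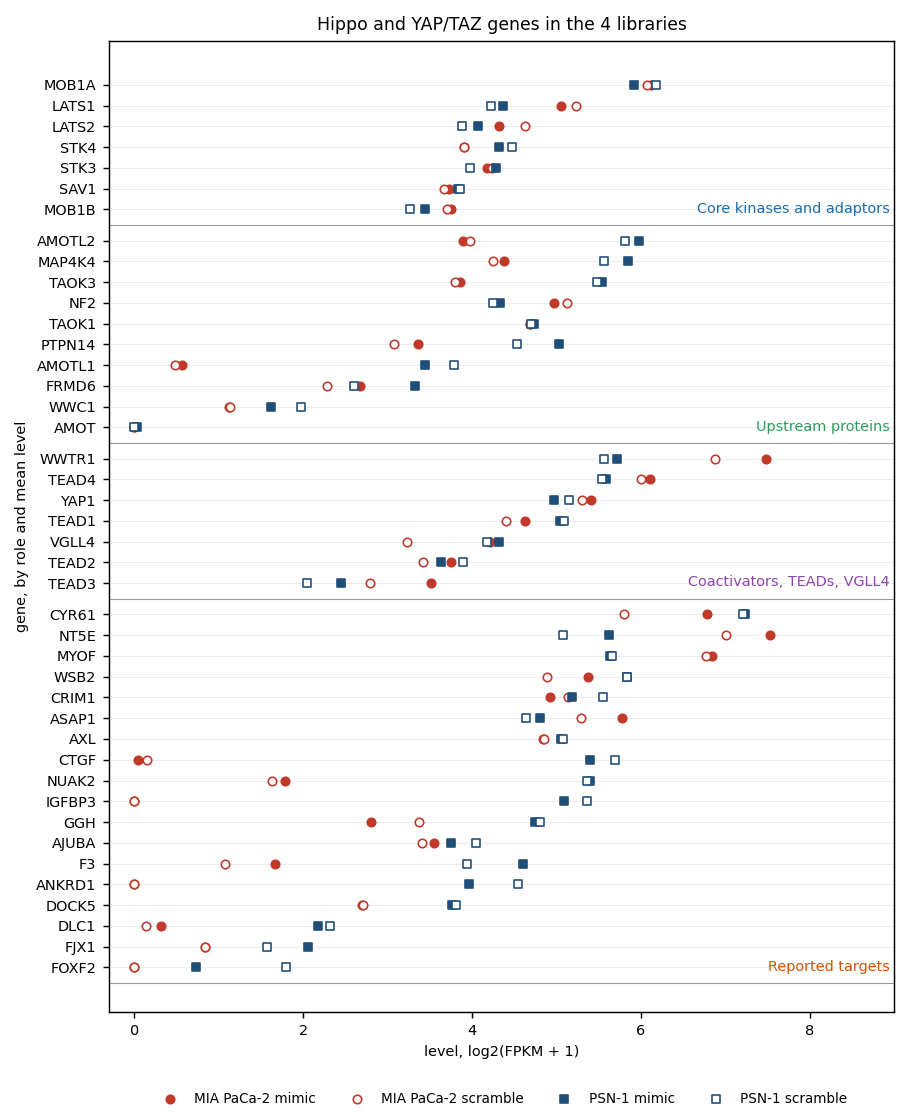
Level of each of the 42 genes in the 4 libraries as log2(FPKM + 1), grouped by role and ordered by mean level (filled: mimic; open: scramble; circles: MIA PaCa-2; squares: PSN-1). The 7 core genes cluster between 8.59 and 71.2 FPKM in every library, while CTGF, IGFBP3, ANKRD1 and FOXF2 sit at or near 0 in MIA PaCa-2 and higher in PSN-1.

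The lines were compared with limma on log2(FPKM + 1), with the transfected oligonucleotide as a term, so that each line had 2 libraries. Those 2 libraries carried different oligonucleotides and nothing states how the cultures were grown, so the p-values measure the spread between these libraries alone. At a Benjamini-Hochberg adjusted p under 0.05, limma called 29.2% of 12423 genes higher and 27.3% lower in PSN-1. Of the 40 members that entered the fit, 19 were called higher and 8 lower in PSN-1. With no filter on low values, limma called 0 of the 42 members and 0 of 26255 genes, though 7803 genes were at an unadjusted p under 0.05. AMOT and FOXF2 did not reach a mean of 1 FPKM over the 4 libraries. Of the 40, the 6 genes AMOTL1, CTGF, ANKRD1, DLC1, FJX1 and IGFBP3 passed the filter through PSN-1 alone, so their mean FPKM had to be higher there. Among the 34 members with at least 1 FPKM in each line, 13 were called higher and 8 lower (61.8%), against 51.6% of the 10678 such genes. The median absolute log2 difference was 0.68 for those 34 members and 0.48 for those 10678 genes. By role the median absolute difference among genes measured in both lines was 0.38 for the 7 core genes, 1.07 for 8 upstream genes, 0.53 for the 7 transcriptional genes and 1.01 for 12 targets.

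Among the core kinases LATS1 was lower in PSN-1 and STK4 higher. In what follows each pair of values gives the mimic library before the scramble library. LATS1, the kinase that phosphorylates YAP and TAZ, was at 32.3 and 36.5 FPKM in MIA PaCa-2, and at 19.6 and 17.6 FPKM in PSN-1. Both PSN-1 libraries were below both MIA PaCa-2 libraries (log2 difference -0.86, SE 0.14, adjusted p = 0.00601 in limma). LATS2, its close relative and itself a reported YAP target, was at 18.9 and 23.7 FPKM in MIA PaCa-2 and at 15.8 and 13.7 in PSN-1, which limma did not call (-0.50, SE 0.17, adjusted p = 0.0578). Together the LATS genes summed to 51.3 and 60.2 FPKM in MIA PaCa-2 and to 35.3 and 31.2 in PSN-1.

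STK4, which phosphorylates LATS kinases, was at 14.0 FPKM in both MIA PaCa-2 libraries and at 19.0 and 21.2 FPKM in PSN-1 (log2 difference 0.49, SE 0.14, adjusted p = 0.0318 in limma). STK3, its paralog, was at 17.1 and 17.8 FPKM in MIA PaCa-2 and at 18.4 and 14.7 FPKM in PSN-1, so the lines overlapped (-0.080, SE 0.16, adjusted p = 0.680 in limma). SAV1, the scaffold of these kinases, was between 11.7 and 13.5 FPKM in all 4 libraries. The adaptor genes MOB1A (59.4 to 71.2 FPKM) and MOB1B (8.59 to 12.5 FPKM) were not called either (adjusted p = 0.757 and 0.0785 in limma). MOB1A was thus the most abundant core gene in each of the 4 libraries.

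Of the 9 upstream genes tested, limma called 6 higher and 1 lower in PSN-1. AMOTL1, called higher, passed the filter through PSN-1 alone. Among the 8 measured in both lines it called 5 higher and 1 lower (75.0%), against 51.6% of the 10678 such genes. NF2, which encodes merlin, a membrane scaffold that recruits LATS, was the lower gene, at 30.2 and 33.9 FPKM in MIA PaCa-2 and at 19.1 and 18.0 FPKM in PSN-1 (log2 difference -0.75, SE 0.14, adjusted p = 0.00771 in limma). The kinase genes MAP4K4 and TAOK3, which can act on LATS or MST kinases, were higher in PSN-1. MAP4K4 was at 19.8 and 18.0 FPKM in MIA PaCa-2 and at 56.6 and 46.4 FPKM in PSN-1 (1.39, SE 0.13). TAOK3 was at 13.5 and 12.9 FPKM against 45.3 and 43.4 FPKM (1.68, SE 0.13). TAOK1, another kinase of that family, lay between 24.7 and 25.6 FPKM in the 4 libraries and showed no such gap (0.033, SE 0.13, adjusted p = 0.834 in limma).

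The angiomotin genes, whose products bind YAP at junctions and actin, were the most unequal of the upstream genes. AMOTL2 was at 13.8 and 14.7 FPKM in MIA PaCa-2 and at 61.8 and 55.3 FPKM in PSN-1 (log2 difference 1.96, SE 0.13, adjusted p = 4.03e-04 in limma). AMOTL1 was at 0.480 and 0.396 FPKM in MIA PaCa-2 and at 9.88 and 12.8 FPKM in PSN-1 (3.09, SE 0.20). AMOT was at 0 in 3 libraries and at 0.0198 FPKM in the PSN-1 mimic library, so neither line expressed it above 1 FPKM. PTPN14, a phosphatase that retains YAP in the cytoplasm, was at 9.26 and 7.39 FPKM against 31.7 and 22.2 FPKM (1.57, SE 0.14, adjusted p = 9.03e-04 in limma). AMOTL2 and PTPN14 are themselves reported YAP targets. WWC1, the gene of the scaffold KIBRA, was low in both lines (1.18 and 1.20 against 2.06 and 2.94 FPKM) and was called higher in PSN-1 (0.66, SE 0.20, adjusted p = 0.0404 in limma). FRMD6, a FERM domain protein gene, was at 5.35 and 3.86 against 8.98 and 5.05 FPKM and was not called (adjusted p = 0.0639 in limma).

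Of the coactivator genes, WWTR1 stood higher in MIA PaCa-2 and YAP1 was similar in both lines. WWTR1 was at 177 and 116 FPKM in MIA PaCa-2, and at 51.4 and 46.3 FPKM in PSN-1 (log2 difference -1.54, SE 0.14, adjusted p = 9.90e-04 in limma). YAP1 was at 41.3 and 38.4 FPKM in MIA PaCa-2 and at 30.3 and 34.3 FPKM in PSN-1 (-0.30, SE 0.13, adjusted p = 0.115 in limma). The level of WWTR1 over that of YAP1 was therefore 4.29 and 3.02 in MIA PaCa-2 and 1.69 and 1.35 in PSN-1. WWTR1-AS1, a gene on the opposite strand, was at 0.188 and 0.105 FPKM in MIA PaCa-2 and at 0.0419 and 0 FPKM in PSN-1. STK4-AS1 was at or under 0.411 FPKM, and the antisense genes of FRMD6 were at or under 0.278 FPKM. Without a stated strand setting, reads of a gene and its antisense partner cannot be told apart.

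The TEAD genes encode the DNA-binding partners of YAP and TAZ. TEAD4 was the highest of them in every library, at 67.6 and 63.2 FPKM in MIA PaCa-2 and at 47.1 and 45.6 FPKM in PSN-1 (log2 difference -0.49, SE 0.11, adjusted p = 0.0156 in limma). TEAD1 went the other way, at 23.6 and 20.2 FPKM against 32.0 and 33.1 FPKM (0.56, SE 0.14, adjusted p = 0.0206 in limma). TEAD3 was at 10.4 and 5.92 FPKM in MIA PaCa-2 and at 4.47 and 3.14 FPKM in PSN-1 (-0.90, SE 0.17, adjusted p = 0.00915 in limma). Without the oligonucleotide as a term TEAD3 was not called (adjusted p = 0.0527 in limma). TEAD2 overlapped between the lines (9.66 to 13.8 FPKM). The 4 TEAD genes together came to 114 and 99.0 FPKM in MIA PaCa-2 and to 94.9 and 95.6 FPKM in PSN-1. TEAD4 made up 59.3% and 63.9% of that sum in MIA PaCa-2 and 49.6% and 47.7% in PSN-1. VGLL4, whose product competes with YAP and TAZ for TEAD factors, was at 17.5 and 8.38 FPKM in MIA PaCa-2 and at 18.9 and 17.0 FPKM in PSN-1 (0.53, SE 0.23, adjusted p = 0.106 in limma).

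**Figure D2:**
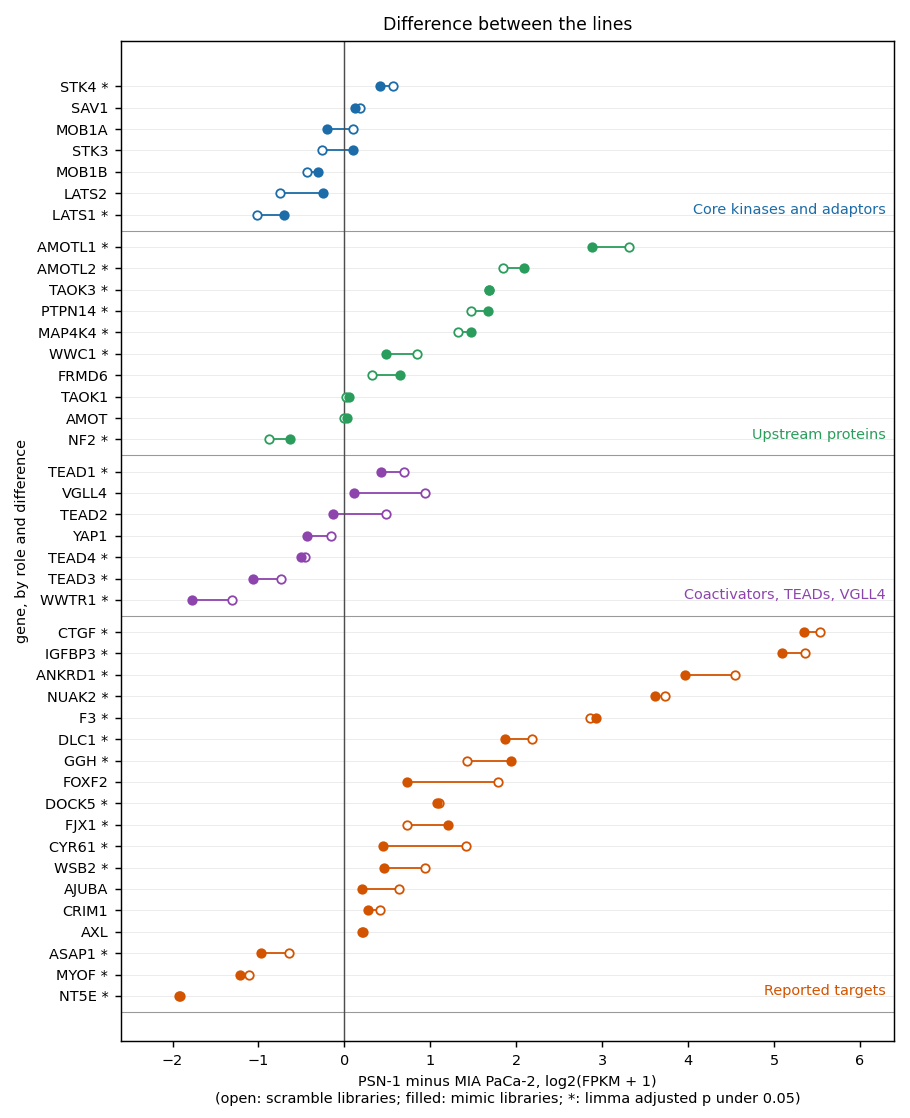
Difference in log2(FPKM + 1) between PSN-1 and MIA PaCa-2 for each gene, for the scramble libraries (open) and the mimic libraries (filled), by role; asterisks mark limma's calls at an adjusted p under 0.05. By limma's mean difference the targets span the widest range, from NT5E at -1.92 to CTGF at 5.44, and the core genes the narrowest, from -0.86 to 0.49.

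The targets split between genes that MIA PaCa-2 held near 0, genes it expressed more than PSN-1 and genes both lines expressed. CTGF and CYR61, secreted matricellular proteins of the CCN family and the usual readouts of YAP activity, did not go together. CTGF was at 0.0328 and 0.110 FPKM in MIA PaCa-2, an estimated 1 and 3 fragments, and at 41.2 and 50.5 FPKM in PSN-1 (adjusted p = 8.32e-05 in limma). The direction of that difference was fixed by the filter, which CTGF passed through PSN-1 alone. CYR61 was at 109 and 54.6 FPKM in MIA PaCa-2 and at 149 and 147 FPKM in PSN-1, so it was abundant in both lines (log2 difference 0.93, SE 0.24, adjusted p = 0.0221 in limma). Without the oligonucleotide as a term CYR61 was not called (adjusted p = 0.0644 in limma).

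Other genes near 0 in MIA PaCa-2 were IGFBP3, ANKRD1, DLC1 and FOXF2. IGFBP3, which binds insulin-like growth factors, was listed at 0 in both MIA PaCa-2 libraries and was at 33.1 and 40.0 FPKM in PSN-1. ANKRD1, an ankyrin repeat protein of the nucleus and sarcomere, was likewise listed at 0 and was at 14.6 and 22.4 FPKM in PSN-1. DLC1, a GTPase-activating protein, was at 0.239 and 0.0986 FPKM against 3.52 and 3.96 FPKM. The transcription factor gene FOXF2 was listed at 0 in MIA PaCa-2 and was at 0.663 and 2.47 FPKM in PSN-1. FJX1, a secreted regulator of planar polarity, was at 0.792 and 0.791 FPKM against 3.15 and 1.97 FPKM.

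NUAK2 and F3 were low in MIA PaCa-2 and higher in PSN-1. NUAK2, a kinase related to AMPK, was at 2.45 and 2.09 FPKM in MIA PaCa-2 and at 41.1 and 40.0 FPKM in PSN-1 (log2 difference 3.67, SE 0.15, adjusted p = 1.15e-04 in limma). F3, the gene of tissue factor, which starts blood coagulation, was at 2.18 and 1.11 FPKM against 23.3 and 14.3 FPKM (2.90, SE 0.16, adjusted p = 2.19e-04 in limma). GGH, a hydrolase of folate polyglutamates, was at 5.99 and 9.38 FPKM against 25.8 and 27.0 FPKM (1.68, SE 0.18). DOCK5, an exchange factor for Rac (1.09, SE 0.15), and WSB2, a SOCS box protein gene (0.70, SE 0.16), were called higher in PSN-1 too.

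NT5E, MYOF and ASAP1 were the 3 targets called lower in PSN-1. NT5E, the surface enzyme CD73 that makes adenosine from AMP, was at 184 and 127 FPKM in MIA PaCa-2 and at 48.0 and 32.7 FPKM in PSN-1 (log2 difference -1.92, SE 0.10, adjusted p = 2.18e-04 in limma). It was the most abundant target in both MIA PaCa-2 libraries, and CYR61 was the most abundant in both PSN-1 libraries. MYOF, the membrane repair protein myoferlin, was at 114 and 108 FPKM against 48.5 and 49.3 FPKM (-1.17, SE 0.11). ASAP1, an ARF GTPase-activating protein, was at 53.8 and 38.0 FPKM against 27.0 and 23.9 FPKM (-0.81, SE 0.14).

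AXL, AJUBA and CRIM1 were not called between the lines. AXL, a receptor tyrosine kinase, lay between 27.6 and 32.6 FPKM in the 4 libraries (log2 difference 0.22, SE 0.12, adjusted p = 0.184 in limma). AJUBA, a LIM protein that restrains LATS kinases, lay between 9.63 and 15.5 FPKM (adjusted p = 0.0917 in limma), and CRIM1, a transmembrane protein that binds BMPs, between 29.2 and 45.8 FPKM (adjusted p = 0.0650 in limma).

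The promoters of targets on either side of this split are shown from the RefSeq table (GRCh38.p14, another build than the hg19 of the values), as the 250 bases before the annotated start. TEAD factors bind the core GGAATG, and matches on either strand (GGAATG or CATTCC) are in capitals. CTGF, ANKRD1 and NUAK2 are shown because they were low or at 0 in MIA PaCa-2 and hold the most matches among the members. AXL (the downstream of its 2 annotated starts) is shown as a target that was not called, and NT5E as the target with the largest difference in the other direction.
CTGF (chr6:131951373-131951622, minus strand): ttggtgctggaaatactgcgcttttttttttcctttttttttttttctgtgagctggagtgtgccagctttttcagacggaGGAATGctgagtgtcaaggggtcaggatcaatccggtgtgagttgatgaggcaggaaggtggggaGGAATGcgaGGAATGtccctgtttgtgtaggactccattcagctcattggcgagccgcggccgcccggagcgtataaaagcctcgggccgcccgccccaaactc
ANKRD1 (chr10:90921088-90921337, minus strand): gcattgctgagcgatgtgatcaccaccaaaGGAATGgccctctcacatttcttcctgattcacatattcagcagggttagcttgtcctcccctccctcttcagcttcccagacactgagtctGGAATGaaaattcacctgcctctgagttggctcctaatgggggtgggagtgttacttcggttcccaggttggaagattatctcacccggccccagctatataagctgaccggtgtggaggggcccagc
NUAK2 (chr1:205321746-205321995, minus strand): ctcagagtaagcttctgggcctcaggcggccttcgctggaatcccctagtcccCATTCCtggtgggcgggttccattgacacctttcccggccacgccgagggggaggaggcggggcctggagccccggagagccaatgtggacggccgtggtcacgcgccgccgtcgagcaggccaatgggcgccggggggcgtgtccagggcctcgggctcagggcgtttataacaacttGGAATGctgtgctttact
AXL (chr19:41226505-41226754, plus strand): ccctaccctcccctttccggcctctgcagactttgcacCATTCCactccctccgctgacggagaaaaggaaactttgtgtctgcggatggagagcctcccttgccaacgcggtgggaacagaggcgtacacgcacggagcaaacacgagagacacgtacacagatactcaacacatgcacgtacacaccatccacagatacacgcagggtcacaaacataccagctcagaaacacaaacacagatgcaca
NT5E (chr6:85449833-85450082, plus strand): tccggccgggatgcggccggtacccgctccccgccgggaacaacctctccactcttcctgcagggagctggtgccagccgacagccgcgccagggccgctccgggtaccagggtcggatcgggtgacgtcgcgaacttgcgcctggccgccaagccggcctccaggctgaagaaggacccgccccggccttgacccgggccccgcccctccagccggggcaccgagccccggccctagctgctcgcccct
The promoter of CTGF (CCN2 in the table) holds 3 matches, those of ANKRD1 and NUAK2 hold 2 each, the promoter of AXL shown here holds 1 and that of NT5E 0. The promoter at the upstream start of AXL (chr19:41218973-41219222, plus strand) holds 0. Among all 35116 promoters that RefSeq lists here, 11.9% hold at least 1 match, 0.940% at least 2 and 0.0826% at least 3. Promoters were listed for 33 of the 42 members. STK3, TEAD1, TEAD4, CYR61, ASAP1, CRIM1, DLC1, DOCK5 and GGH were not matched. Matches were in 7 of the 15 promoters of targets (46.7%), in 3 of 15 of upstream genes (1 each for TAOK3, AMOTL2 and PTPN14), in 1 of 11 of transcriptional genes (YAP1) and in 0 of 8 of core genes. IGFBP3, F3, FJX1 and MYOF, which differed between the lines, held 0 matches, and FOXF2, AJUBA and WSB2 held 1. A match describes letters in this window and not binding.

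Other genes of the pathway were compared in the same fit. Of 50 further pathway genes, 41 entered the fit, and limma called 15 higher and 10 lower in PSN-1. Among the 37 measured in both lines it called 12 higher and 9 lower (56.8%), against 51.6% of the 10678 such genes. TNIK and RASSF5, named next, averaged under 1 FPKM in MIA PaCa-2, and RASSF4 did so in PSN-1. TNIK, a kinase related to MAP4K4, was at 0.0395 and 0.133 FPKM in MIA PaCa-2 and at 35.0 and 37.2 FPKM in PSN-1. RASSF5, the gene of a protein that can bind MST kinases, was also called higher in PSN-1 (1.44, SE 0.18). The LIM protein gene WTIP (24.4 and 20.7 FPKM against 3.85 and 3.87 FPKM), RASSF4 (-2.25, SE 0.18) and the kinase gene MINK1 (-1.59, SE 0.16) had the largest differences in the other direction.

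Of 30 further reported targets, 22 entered the fit, and limma called 10 higher and 5 lower in PSN-1. Of the 22, 7 were under 1 FPKM in MIA PaCa-2 and passed the filter through PSN-1 alone, so their mean FPKM had to be higher there. EDN1, one of the 7, was still not called (0.39, SE 0.40, adjusted p = 0.436 in limma). Among the 15 measured in both lines, 4 were called higher and 5 lower (60.0%), against 51.6% of the 10678 such genes. The 3 higher genes named next were all under 1 FPKM in MIA PaCa-2. THBS1, the matrix protein thrombospondin, was at 0.0200 and 0.0335 FPKM in MIA PaCa-2 and at 52.9 and 84.9 FPKM in PSN-1. RND3, a small GTPase gene, and TGFB2, a growth factor gene, were listed at 0 in MIA PaCa-2 and were at 41.8 and 57.7 FPKM and at 7.09 and 10.9 FPKM in PSN-1. SGK1, a serum and stress induced kinase gene, was at 748 and 345 FPKM in MIA PaCa-2 and at 12.5 and 15.5 FPKM in PSN-1 (-5.09, SE 0.33, adjusted p = 3.39e-04 in limma). GADD45B (-1.53, SE 0.29) and ANLN (-1.06, SE 0.18) were the next lower genes.

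The mimic was then compared with the scramble within each line, where 1 library a side allows no test. A change is the mimic value minus the scramble value of log2(FPKM + 1), which makes changes of low genes look smaller than they are. Genes averaging 1 FPKM or more over the line's libraries were counted. In MIA PaCa-2, 5 of 34 measured members were higher past 1.5-fold and 0 were lower, against 5.43% of 11484 genes higher and 4.06% lower. The median change of those members was 0.092 and that of all measured genes 0.014. In PSN-1, 2 of 41 were higher and 2 lower, against 3.17% of 12233 genes higher and 3.87% lower, and the medians were 0.022 and -0.016. Errors below are counting errors from the estimated fragments and leave out the spread between cultures.

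In MIA PaCa-2 the 5 members past 1.5-fold were CYR61, VGLL4, TEAD3, WWTR1 and F3. CYR61 was at 109 against 54.6 FPKM (log2 change 0.99, counting SE 0.043), at percentile 98.6 of the changes of all measured genes. VGLL4 was at 17.5 against 8.38 FPKM (0.98, counting SE 0.17), an estimated 193 against 83 fragments. WWTR1 was at 177 against 116 FPKM (0.61, counting SE 0.052) and TEAD3 at 10.4 against 5.92 FPKM (0.72, counting SE 0.12). F3 was at 2.18 against 1.11 FPKM (0.59, counting SE 0.19), and with libraries scaled by median ratios it lay just inside 1.5-fold, at 0.58. All 7 coactivator, TEAD and VGLL4 genes were above 0, from 0.095 for TEAD4 to 0.98 for VGLL4. Of all 11484 measured genes, 5990 were above 0. TEAD4 (counting SE 0.076) and YAP1 (0.10, counting SE 0.056) were close to 0 for their counting errors. In PSN-1 4 of the same 7 genes were above 0.

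Just inside the 1.5-fold line in MIA PaCa-2, which is 0.58 on the log2 scale, were NT5E at 184 against 127 FPKM (0.53), ASAP1 at 53.8 against 38.0 (0.49) and WSB2 at 40.3 against 28.6 (0.48). On the lower side GGH was at 5.99 against 9.38 FPKM (-0.57, counting SE 0.14). Changes of the 7 core genes ran from -0.31 for LATS2 to 0.050 for SAV1 and MOB1B, and NF2 was at -0.16.

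In PSN-1 the members past 1.5-fold were FRMD6 and F3 on the higher side and FOXF2 and ANKRD1 on the lower. FRMD6, a FERM domain protein upstream of the kinases, was at 8.98 against 5.05 FPKM (0.72, counting SE 0.17), and F3 was at 23.3 against 14.3 FPKM (0.66, counting SE 0.086). ANKRD1 was at 14.6 against 22.4 FPKM (-0.59, counting SE 0.086), and with median-ratio scaling it lay inside 1.5-fold, at -0.57. FOXF2 was at 0.663 against 2.47 FPKM (-1.06, counting SE 0.17), an estimated 24 against 72 fragments, at percentile 0.605 of all measured genes. Changes of the 7 core genes in PSN-1 ran from -0.26 for MOB1A to 0.31 for STK3, and NF2 was at 0.081.

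FOXF2 is the member with a seed site, and its site is shown with 30 bases of GENCODE transcript ENST00000645481.2 around it, starting in capitals at base 68 of the 3' UTR.
FOXF2 site: atagaaactggGACGGATtcaagtcacatg
The gene was listed at 0 in MIA PaCa-2, so its lower level with the mimic was seen in 1 pair of libraries. MAP4K4, with a site in the coding sequence, had log2 changes of 0.13 (MIA PaCa-2) and 0.28 (PSN-1).

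The other targets lay on both sides of 0 in PSN-1. On the higher side, inside 1.5-fold, were NT5E at 48.0 against 32.7 FPKM (0.54, counting SE 0.087) and FJX1 at 3.15 against 1.97 FPKM (0.48, counting SE 0.16). CYR61, which was 0.99 higher in MIA PaCa-2, was at 149 against 147 FPKM in PSN-1 (0.022, counting SE 0.029). CTGF was at 41.2 against 50.5 FPKM (-0.29, counting SE 0.051), IGFBP3 at 33.1 against 40.0 FPKM (-0.26, counting SE 0.089) and CRIM1 at 35.3 against 45.8 FPKM (-0.37, counting SE 0.094). Of the 18 targets 6 were above 0 and 12 below in PSN-1 (median -0.030), where 5829 of all measured genes were above and 6404 below. Of the 12 targets measured in both lines, 8 were above 0 with the mimic in MIA PaCa-2 (66.7%, median 0.15) and 5 in PSN-1 (41.7%, median -0.011). Of the 10678 such genes, 52.4% and 48.1% were above 0. The difference between the lines in the response was not tested, since with 1 library a group it is also the only measure of spread.

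**Figure D3:**
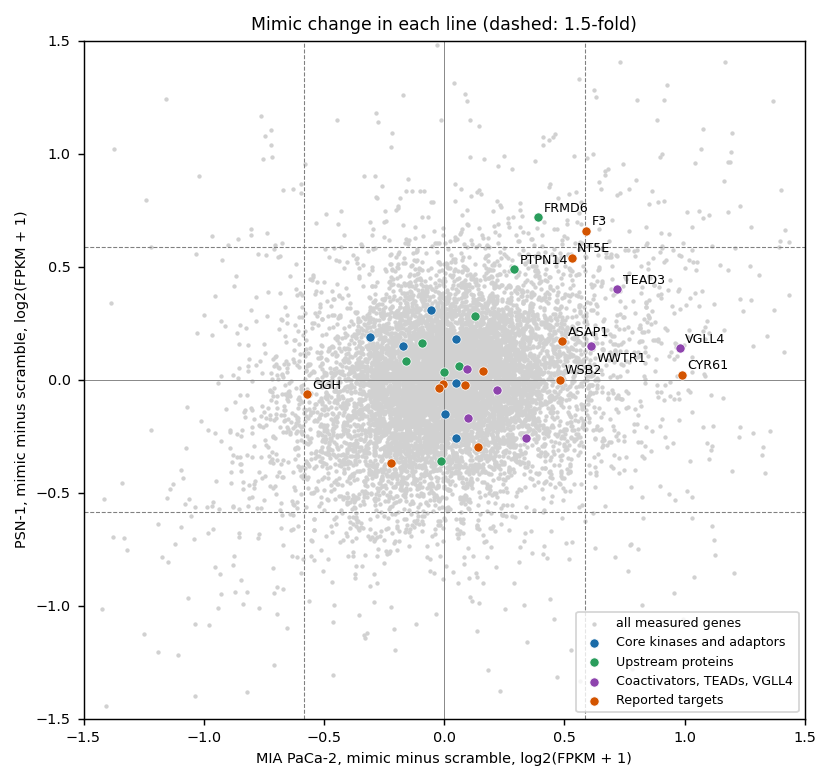
Mimic minus scramble in log2(FPKM + 1) in MIA PaCa-2 (horizontal) and PSN-1 (vertical) for the 34 members measured in both lines, coloured by role, over all other measured genes in grey; 68 genes lie outside the axes. F3 is the member past 1.5-fold (dashed) in both lines, and CYR61 and VGLL4 lie far to the right near the horizontal axis.

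Limma then estimated the mimic's mean change over the lines on log2(FPKM + 1) with the line as a block, which leaves 1 residual degree of freedom. At an adjusted p under 0.05 limma called 7 of 10678 genes (0.0656%) and 0 of the 34 members. At an unadjusted p under 0.05 it placed 7 members higher and 0 lower, against 9.93% of all genes in either direction (534 higher and 526 lower). Those 7 were NT5E, F3, TEAD3, FRMD6, PTPN14, WWTR1 and VGLL4. NT5E came first, with a mean log2 change of 0.53 (SE 0.11, adjusted p = 0.234 in limma), from 184 against 127 FPKM (MIA PaCa-2) and 48.0 against 32.7 FPKM (PSN-1). F3 followed (0.63, SE 0.16, adjusted p = 0.331 in limma). All 7 genes were higher with the mimic in 2 of 2 lines. The fit takes its spread from the disagreement of the lines, so a low p already favours genes on which the lines agree. PTPN14 was at 9.26 against 7.39 and at 31.7 against 22.2 FPKM (0.39, SE 0.15, adjusted p = 0.473 in limma). YAP1 (-0.034, SE 0.14), LATS1 (-0.011, SE 0.15), LATS2 (-0.060, SE 0.17), STK3 (0.13, SE 0.16), STK4 (-0.074, SE 0.14) and NF2 (-0.040, SE 0.14) had mean changes smaller than their errors. TEAD1 (0.086, SE 0.14), TEAD2 (0.041, SE 0.19) and TEAD4 (0.070, SE 0.11) did too.

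Of the further pathway genes, 0 of 40 measured in MIA PaCa-2 were past 1.5-fold in either direction on the log2(FPKM + 1) scale. Their changes there ran from -0.58 to 0.57, just inside the mark at both ends. In PSN-1 0 of 40 were higher and 1 was lower, RASSF5 at 2.69 against 5.67 FPKM (-0.85). RASSF5 was lower in MIA PaCa-2 too, at 0.348 against 1.47 FPKM (-0.87, counting SE 0.14), an estimated 17 against 65 fragments. Its mean there was under 1 FPKM, so it was not among the 40 measured in MIA PaCa-2. Of the further reported targets, 3 of 15 were higher and 1 lower in MIA PaCa-2, against 5.43% and 4.06% of 11484 genes. PSN-1 had 0 of 22 higher and 5 lower, against 3.17% and 3.87% of 12233 genes. Genes of these counts are named after their values were seen. GADD45A, a growth arrest gene, and SGK1 were among the higher genes in MIA PaCa-2, at 58.5 against 26.5 and 748 against 345 FPKM. GADD45B, a relative of GADD45A, was the lower gene there, at 119 against 193 FPKM. In PSN-1 EDN1 (-1.31), CCND1 (-0.86), ARHGEF17 (-0.71) and THBS1 (-0.67) were among the lower genes. ARHGEF17 was lower in MIA PaCa-2 too, at 5.54 against 8.58 FPKM (-0.55), inside 1.5-fold on the log2(FPKM + 1) scale. Limma called 0 of 15 of these further targets and 0 of 37 further pathway genes across both lines. At an unadjusted p under 0.05 it placed 0 of the 15 targets higher and 3 lower, and 0 of the 37 pathway genes in either direction.

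**Figure D4:**
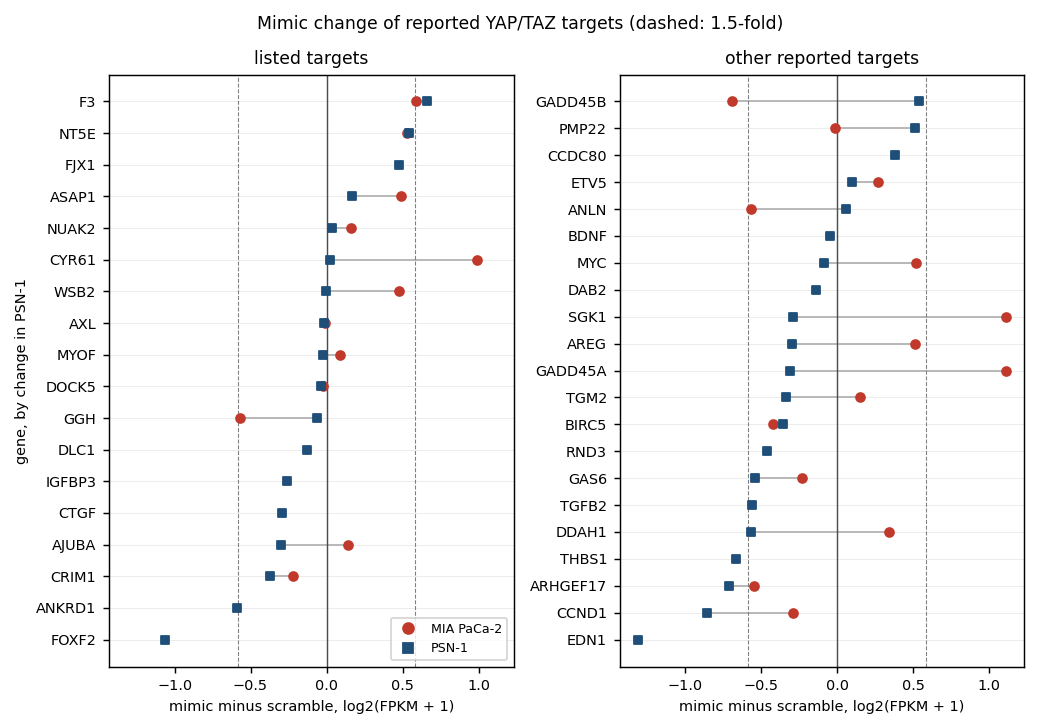
Mimic minus scramble in log2(FPKM + 1) for the listed targets (left) and 21 further reported targets (right) measured in PSN-1, with circles for MIA PaCa-2, where measured, and squares for PSN-1. GADD45A, SGK1 and CYR61 lie near 1 in MIA PaCa-2 and at or below 0.022 in PSN-1.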

How the data were processed

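Polyadenylated RNA was sequenced from 4 libraries, 1 for each line and oligonucleotide. Per the labels' protocols, the RNA was prepared with miRNeasy Micro reagents and sequenced as TruSeq stranded mRNA libraries. Per the file headers, the authors deposited 1 FPKM value for each symbol. TopHat2 2.1.1, Cuffdiff 2.2.1 and hg19 appear, with no role, in the submitters' processing notes; the sources used here do not state the strand setting or annotation.

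Members were matched by symbol. Values were compared as log2(FPKM + 1) at a mean of at least 1 FPKM, in the line for changes within a line, in each line for the shared mimic effect and over the 4 libraries for the lines, with 1.5-fold as the mark within a line. Two-sided fits across all genes used limma 3.58.1 (R 4.3.3) with a trended eBayes step and Benjamini-Hochberg adjustment, tested on simulated data first. Libraries were paired by their line, since no replicate numbers are given. Fragments per FPKM came from whole-fragment steps among values under 0.3 FPKM in genes with 1 annotated transcript of at least 1000 bases, assuming fragments of 200 bases; counting errors use the median coding transcript length in GENCODE 29.

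Every member is accounted for. Those given in full were called, past 1.5-fold or fixed by name. Of the further lists they were the 3 largest line differences each way and any gene past 1.5-fold alike in both lines. On the log2(FPKM + 1) scale there were 0 such genes. Some genes of the further lists are counted but not reported here by name. Members and lists were chosen with earlier results of these data known. Alternatives were a pseudocount of 0.1, no filter, a filter of 5 FPKM, median-ratio scaling, no trend and fewer terms. Python 3.11.15, numpy 2.4.6, pandas 2.3.3 and matplotlib 3.10.9 were used.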

Additional observations from a re-analysis of the deposited data

Results flagged for a closer look

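Some further reported targets were past 1.5-fold with the mimic in at least 1 line and on opposite sides of 0 in the 2 lines. The difference between the lines was not tested. In MIA PaCa-2 and then PSN-1, the log2 changes were 1.11 and -0.31 for GADD45A, 1.11 and -0.29 for SGK1, and -0.69 and 0.54 for GADD45B. None of the 34 Hippo and YAP/TAZ genes measured in both lines met this description.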

How the results depend on the processing

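With 1 library a group no library could be left out of a test. Without a filter, the fit to 26255 genes called 0 genes and 0 members in either direction, for the lines and for the shared mimic effect (7803 and 1333 genes at an unadjusted p under 0.05); the lowest member p was then 0.0843 and 0.788 (adjusted, limma). The other alternatives called 24 to 29 members between the lines, where 27 were called, and 21 of 34 with at least 1 FPKM in each line, a filter chosen after seeing the data. TEAD3 (adjusted p = 0.0527 in limma) and CYR61 were lost without the oligonucleotide term, and FRMD6 and CRIM1 gained with median-ratio scaling (0.0497 and 0.0403). For the shared mimic effect, 0 members were called under every alternative run. Over all genes limma called 6 higher and 1 lower, but 21 and 14 with median-ratio scaling, 2 lower with a filter of 5 FPKM and 0 lower without trend. Without the replicate block by line it called 0 higher and 0 lower (54 genes at an unadjusted p under 0.05). No member changed call under the block.

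Within MIA PaCa-2, 1 member (GGH) was lower past 1.5-fold with a pseudocount of 0.1 FPKM, and 292 genes were lower with the filter of 5 FPKM. Within PSN-1, 593 genes were higher and 737 lower with that pseudocount, and 226 and 311 with that filter, which counts fewer genes. There 1 member was lower with the filter of 5 FPKM (FOXF2 left out) and 1 with median-ratio scaling (ANKRD1 inside). With the smaller pseudocount FJX1 in PSN-1 also passed 1.5-fold, at 0.65. ARHGEF17, a further target, then passed it in MIA PaCa-2 as well, at -0.62. It was at -0.84 in PSN-1, so it was lower past 1.5-fold in both lines. The cause of the other shifts was not tested. Depth limits F3 in MIA PaCa-2, at an estimated 64 and 29 fragments, and FOXF2.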
